A study of Mus musculus with 3 samples.

Results

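Fc receptors, TREM receptors and paired immunoglobulin-like receptors were followed as 10 genes named by mouse symbol: Fcgr1, Fcgr2b, Fcgr3, Fcgr4, Fcer1g, Tyrobp, Trem1, Pirb, Pilra and Pilrb1. All 10 were found among the 19723 genes of the deposited count table, and all 10 passed the filter on low values that left 13019 genes. RNA was sequenced from 3 pools of sorted cells. All mice were BALB/c females, 6 to 8 weeks old. The first pool held myeloid-derived suppressor cells (MDSCs, myeloid cells that dampen T cell responses) from 20 tumours taken from mice on alisertib, which inhibits Aurora A kinase. The second held MDSCs of 20 control tumours, and the last held neutrophils from the marrow of 5 wild-type animals. Each pool was sequenced as 1 library, so no spread between animals could be measured and no p-value was computed. The labels describe the control mice both as untreated and as control treated, and name neither the sort markers, the tumour line nor the dose.

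Fc gamma receptors bind the constant part of IgG and let myeloid cells take up or kill antibody-coated targets. Most of them have no signalling tail of their own. They rely on the adaptor encoded by Fcer1g, whose ITAM (an activation motif with paired tyrosines) recruits the kinase SYK, whereas the receptor of Fcgr2b carries an ITIM, an inhibitory motif that recruits phosphatases. Tyrobp encodes the sister adaptor DAP12, which serves TREM receptors and activating members of paired receptor families. Paired receptors come as activating and inhibitory forms with similar ligand-binding parts. Pilra and Pirb encode inhibitory forms with ITIMs, and Pilrb1 encodes an activating form. On neutrophils, Trem1 amplifies inflammatory responses, and Pirb, which binds MHC class I, dampens them.

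The RefSeq table of windows from 250 bases before to 50 after the gene start (GRCm38.p6) held 9 of the 10 genes, all but Tyrobp. Windows of 5 genes are shown because they hold a motif of a myeloid regulator. In these, capitals mark GAGGAA or its reverse complement TTCCTC, the core of the purine-rich box bound by PU.1, a transcription factor that myeloid cells need. The search covered both strands, and no match overlapped another.
Fcgr1 (chr3:96293920-96294219, minus strand): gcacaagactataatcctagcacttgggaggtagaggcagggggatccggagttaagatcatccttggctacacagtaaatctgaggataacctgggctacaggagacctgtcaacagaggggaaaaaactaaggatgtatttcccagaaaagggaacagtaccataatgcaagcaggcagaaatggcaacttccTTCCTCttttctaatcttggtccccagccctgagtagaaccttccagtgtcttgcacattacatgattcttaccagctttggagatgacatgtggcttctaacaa
Fcgr3 (chr1:171059354-171059653, minus strand): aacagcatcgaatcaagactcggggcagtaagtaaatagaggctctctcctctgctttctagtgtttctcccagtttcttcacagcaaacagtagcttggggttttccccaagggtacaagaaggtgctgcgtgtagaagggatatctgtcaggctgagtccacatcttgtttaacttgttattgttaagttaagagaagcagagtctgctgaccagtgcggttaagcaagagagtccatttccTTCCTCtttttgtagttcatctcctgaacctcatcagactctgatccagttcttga
Fcgr4 (chr1:171018676-171018975, plus strand): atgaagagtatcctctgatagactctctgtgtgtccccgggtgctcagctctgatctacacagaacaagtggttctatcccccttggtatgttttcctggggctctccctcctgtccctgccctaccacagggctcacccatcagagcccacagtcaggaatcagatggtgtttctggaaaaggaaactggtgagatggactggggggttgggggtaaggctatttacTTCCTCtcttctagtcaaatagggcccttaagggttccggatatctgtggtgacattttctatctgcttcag
Trem1 (chr17:48232489-48232788, plus strand): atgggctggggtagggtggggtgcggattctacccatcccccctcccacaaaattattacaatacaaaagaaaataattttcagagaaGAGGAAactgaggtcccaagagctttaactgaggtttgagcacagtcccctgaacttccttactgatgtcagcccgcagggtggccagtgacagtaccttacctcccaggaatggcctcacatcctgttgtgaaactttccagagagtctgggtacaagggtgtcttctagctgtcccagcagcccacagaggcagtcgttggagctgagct
Pirb (chr7:3720333-3720632, minus strand): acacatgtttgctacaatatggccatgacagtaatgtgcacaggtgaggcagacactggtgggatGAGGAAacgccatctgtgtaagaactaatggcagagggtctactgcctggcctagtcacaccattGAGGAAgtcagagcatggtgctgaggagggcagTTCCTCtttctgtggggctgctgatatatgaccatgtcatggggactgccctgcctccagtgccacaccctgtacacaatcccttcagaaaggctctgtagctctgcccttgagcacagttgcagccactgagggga
The motif was present in 6 of the 9 windows and in 28.3% of the windows of 27025 genes. In Fcgr1, Fcgr3 and Fcgr4 it began 55, 6 and 22 bases before the RefSeq start on the opposite strand. The first window listed for each gene was used. The window of Fcgr3 lay wholly inside the gene's span in the annotation used for positions (171051174 to 171064935). It did not reach the outermost start there, and neither did that of Fcgr2b. Pirb held 3 matches, and 4.84% of all windows held 2 or more. Pilra held 1 match, and Fcgr2b, Fcer1g and Pilrb1 held none, so members with and without the motif were found both above and below their bone marrow level. A match is a description of these letters and not evidence of binding.

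Pilra and Pilrb1 are neighbours on chromosome 5 and are shown with the bases at which they differ in capitals. They were chosen because their windows were nearly the same and their transcripts kept nearly the same proportion in both tumour libraries (below). The proportion differed in bone marrow, and a link between windows and proportion was not tested.
Pilra (chr5:137836229-137836528, minus strand): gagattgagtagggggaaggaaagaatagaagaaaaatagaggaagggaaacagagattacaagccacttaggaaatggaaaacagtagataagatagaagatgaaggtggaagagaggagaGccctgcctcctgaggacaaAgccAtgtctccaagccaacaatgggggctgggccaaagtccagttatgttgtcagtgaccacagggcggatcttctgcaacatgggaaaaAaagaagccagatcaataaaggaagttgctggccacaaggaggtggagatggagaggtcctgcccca
Pilrb1 (chr5:137858000-137858299, minus strand): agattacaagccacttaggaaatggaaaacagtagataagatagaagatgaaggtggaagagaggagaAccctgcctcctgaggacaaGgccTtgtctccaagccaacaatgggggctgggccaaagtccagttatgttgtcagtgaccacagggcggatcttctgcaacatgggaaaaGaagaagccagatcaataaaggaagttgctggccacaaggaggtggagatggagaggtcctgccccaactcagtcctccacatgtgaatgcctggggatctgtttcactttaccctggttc
When the window of Pilrb1 was shifted by 54 bases against that of Pilra, 242 of 246 overlapping bases were identical (98.4%), with an unbroken run of 86. The GAGGAA match of Pilra lay 211 bases before its start and outside the overlap.

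Close copies limit which counts can be given to which gene. Fcgr2b and Fcgr3, both on chromosome 1, share 129 coding bases without a difference (in Fcgr3 between positions 171054167 and 171057792 and in Fcgr2b between 170966674 and 170968081 of GRCm38, across an exon junction in each): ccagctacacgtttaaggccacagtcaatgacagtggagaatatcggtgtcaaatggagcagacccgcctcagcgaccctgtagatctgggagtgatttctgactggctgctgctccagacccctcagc. Of the 50-base words in the annotated transcripts, 9.58% of those of Fcgr3 also occurred in Fcgr2b. For Pirb, 34.0% occurred in another gene, most often Gm14548 (17.7%) and the activating relative Pira2 (16.8%). For Pilrb1, 30.1% occurred elsewhere (26.0% in Pilrb2), and for Pilra 7.57%. No word of Fcgr1, Fcgr4, Fcer1g, Tyrobp or Trem1 was shared. On the opposite strand, exons of Gm38204 overlapped those of Fcgr2b, exons of Zcwpw1 those of Pilra and exons of Gm36551 those of Pilrb1. Gm36551 had 107 counts with alisertib, 175 in control MDSCs and 299 in bone marrow, and strand was not assumed.

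The libraries held 19373087 counts (alisertib), 21959748 counts (control) and 21987097 counts (bone marrow). Levels of a gene are given as CPM, its counts per 1000000 of a library size scaled with edgeR's TMM factors. Levels are compared between genes as the deposited FPKM, which corrects for gene length and library size. Ratios of scaled counts carry exact 95% intervals that cover counting error only, and a call needed the interval's bound closer to 1 to be at least 2-fold away. All 13 neutrophil markers were detected in each library. They summed to 15358 CPM with alisertib, 35348.5 CPM in control MDSCs and 111377 CPM in bone marrow, and Ly6g stood at 60.0, 82.2 and 1099.8 CPM. Markers of B and plasma cells summed to 55.3, 8.55 and 240.7 CPM in the same order, and those of monocytes and macrophages to 1079, 1003 and 598 CPM. T and NK cell markers summed to 60.1, 20.7 and 146.0 CPM, but Cd3d alone made up 136 CPM of the bone marrow sum. Of the 12 tested, 9 were called higher and 1 lower with alisertib against bone marrow, and 4 higher and 1 lower in control MDSCs. In bulk RNA, fewer cells of a type and less RNA per cell cannot be told apart.

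In control MDSCs against bone marrow neutrophils, transcripts of 3 of the 4 IgG receptors and of Trem1 were higher. They included the inhibitory Fcgr2b, whereas those of the inhibitory receptors Pirb and Pilra were lower. Of the members, 4 were called higher (Fcgr1, Fcgr2b, Fcgr3 and Trem1), 2 were called lower (Pirb and Pilra), and 4 were not called. Among all tested genes 41.3% were called in this comparison, 18.3% higher and 22.9% lower, so the members' count in each direction is read against a high background. Their log2 ratios ran from -2.99 to 1.82, with a median of 0.46 against -0.14 for all genes.

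**Figure D1:**
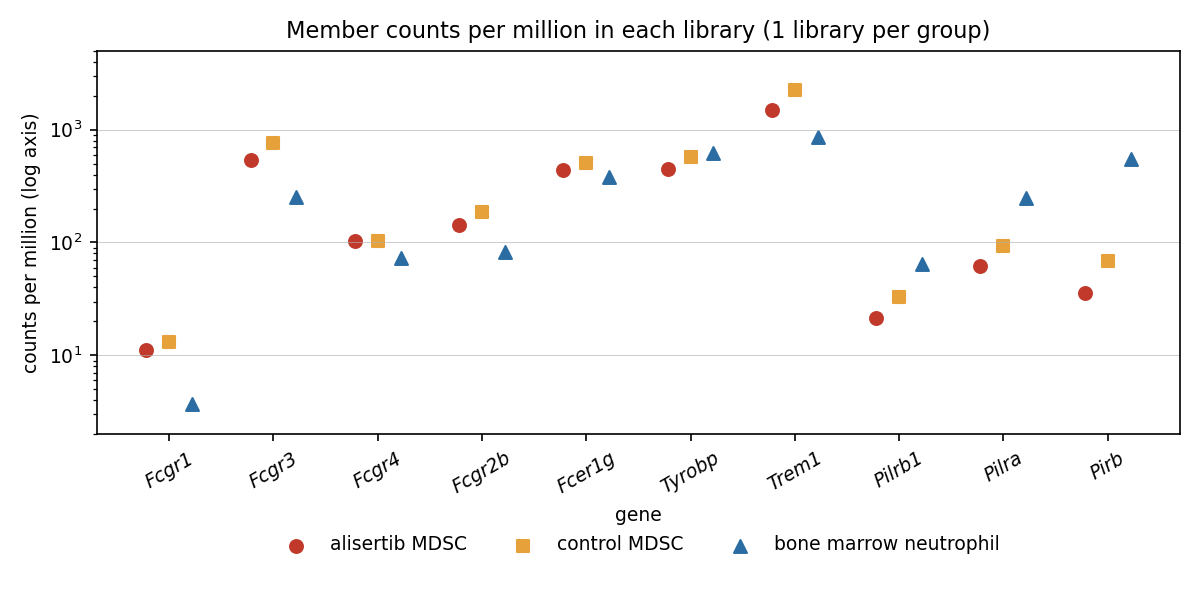
CPM (log axis) of the 10 genes in the alisertib MDSC, control MDSC and bone marrow neutrophil libraries, 1 point per library. Fcgr1, Fcgr3, Fcgr4, Fcgr2b and Trem1 were highest in a tumour library, whereas Pilrb1, Pilra and Pirb were highest in bone marrow, where Pirb reached 547 CPM.

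Among the activating IgG receptors, Fcgr3 was the most abundant. Fcgr3, a low-affinity receptor for immune complexes (ENSMUSG00000059498, chromosome 1, 171051174 to 171064935, minus strand), had 11073 counts with alisertib, 14842 in control MDSCs and 5875 in bone marrow, or 533, 760 and 255 CPM. Both tumour libraries were above bone marrow, with ratios of 2.09 with alisertib (interval 2.03 to 2.16) and 2.98 in control MDSCs (2.89 to 3.08), both called higher. When Fcgr3 was summed with Fcgr2b, with which it shares sequence, the alisertib ratio was 2.01 (1.95 to 2.07) and was no longer called.

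Fcgr1, the high-affinity IgG receptor and a marker often used for macrophages (ENSMUSG00000015947, chromosome 3, 96282909 to 96293969, minus strand), had 231 counts with alisertib, 256 in control MDSCs and 85 in bone marrow. At 11.1, 13.1 and 3.68 CPM it was the lowest of the 10 genes per length, at 4.17, 4.93 and 1.41 FPKM. It was 3.02-fold higher with alisertib than in bone marrow (2.35 to 3.92) and 3.56-fold higher in control MDSCs (2.77 to 4.60). The monocyte and macrophage markers, of which 6 of 13 were called higher and 3 lower in control MDSCs against bone marrow, were also higher in sum in the tumour libraries, and their part in the level of Fcgr1 was not tested. Within that list the defining marker Csf1r stood at 172.8, 173.7 and 174.6 CPM and Adgre1 at 19.5, 20.3 and 14.2 CPM.

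Fcgr4, a receptor for IgG2 subclasses (ENSMUSG00000059089, chromosome 1, 171018920 to 171029761, plus strand), had 2149, 2018 and 1668 counts, or 103.5, 103.3 and 72.3 CPM. Its ratio to bone marrow was 1.43 with alisertib (1.34 to 1.53) and 1.43 in control MDSCs (1.34 to 1.53), below the 2-fold bound in both.

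The inhibitory IgG receptor gene Fcgr2b (ENSMUSG00000026656, chromosome 1, 170958617 to 170976547, minus strand) had 2971, 3644 and 1890 counts, or 143, 187 and 81.9 CPM. Control MDSCs were 2.28-fold higher than bone marrow (2.15 to 2.41) and were called. With total counts as the library size, its log2 ratio was 0.95 and the call was lost. The alisertib library was 1.75-fold higher than bone marrow (1.65 to 1.85) and was not called. Fcgr2b is also the IgG receptor of B cells. B and plasma cell markers were higher in bone marrow, where Fcgr2b was lowest of the 3 libraries, and all 12 of them were called lower in control MDSCs. The part of B cells in the level of Fcgr2b was not tested.

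Per length, the mix of the 4 IgG receptors shifted mainly between Fcgr3 and Fcgr4. Fcgr3 made up 73.4% of their summed FPKM with alisertib, 78.5% in control MDSCs and 66.7% in bone marrow, and Fcgr4 19.7%, 14.8% and 26.2%. Fcgr2b stayed between 5.78% and 6.44%. The ratio of the 3 activating receptors to Fcgr2b was 15.9 with alisertib, 16.3 in control MDSCs and 14.5 in bone marrow. In counts, a share that does not depend on how libraries are scaled, Fcgr4 took 13.1% of the 4 receptors' counts with alisertib (exact binomial interval 12.6 to 13.6), 9.72% in control MDSCs (9.32 to 10.1) and 17.5% in bone marrow (16.8 to 18.3). Fcgr2b took 58.0% of the counts of Fcgr2b and Fcgr4 together with alisertib (56.7 to 59.4), 64.4% in control MDSCs (63.1 to 65.6) and 53.1% in bone marrow (51.5 to 54.8). The 3 intervals, which cover counting error only, did not overlap in either share. Both shares hold the counts of Fcgr2b and Fcgr4, so they are not separate results. In each, the alisertib library lay between the control and bone marrow libraries.

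The adaptor genes lay closer to their bone marrow level than Fcgr1, Fcgr3 and Trem1 did. Fcer1g (ENSMUSG00000058715, chromosome 1, 171229572 to 171234365, minus strand) had 9144, 9867 and 8778 counts, or 441, 505 and 381 CPM. Its ratio to bone marrow was 1.16 with alisertib (1.12 to 1.19) and 1.33 in control MDSCs (1.29 to 1.37). Tyrobp (ENSMUSG00000030579, chromosome 7, 30413760 to 30417585, plus strand) had 9236, 11071 and 14257 counts, or 445, 567 and 618 CPM. It stood lowest with alisertib and highest in bone marrow, with ratios to bone marrow of 0.720 with alisertib (0.701 to 0.739) and 0.917 in control MDSCs (0.895 to 0.940). Neither adaptor was called.

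Tyrobp and Fcer1g were also among the most abundant transcripts per length in all 3 pools. Tyrobp ranked 53, 55 and 24 of 23327 genes by FPKM with alisertib, in control MDSCs and in bone marrow, and Fcer1g ranked 81, 97 and 66. Fcer1g took 49.7% of the counts of both adaptors with alisertib (49.0 to 50.5), 47.1% in control MDSCs (46.4 to 47.8) and 38.1% in bone marrow (37.5 to 38.7). Mast cells and basophils use Fcer1g for the IgE receptor. Of 11 markers of eosinophils, basophils and mast cells, 10 were in the count table. They summed to 67.7 CPM with alisertib, 48.7 CPM in control MDSCs and 173 CPM in bone marrow. The highest single marker gave 52.3 CPM of the alisertib sum and 35.6 CPM of the control sum. Against bone marrow, 8 of the 10 were called lower and 1 higher in each tumour library. The IgE receptor subunit gene Ms4a2 had 1, 0 and 179 counts.

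The FPKM of receptors relative to their adaptor was higher in both tumour libraries, where it depends on both parts of the ratio. The summed FPKM of Fcgr1, Fcgr3 and Fcgr4 was 0.782 of that of Fcer1g with alisertib, 0.908 in control MDSCs and 0.472 in bone marrow. Trem1 stood at 0.747 of the FPKM of Tyrobp with alisertib, 0.881 in control MDSCs and 0.307 in bone marrow. Both adaptors serve further receptors, so these ratios do not give the number of receptors that have an adaptor.

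**Figure D2:**
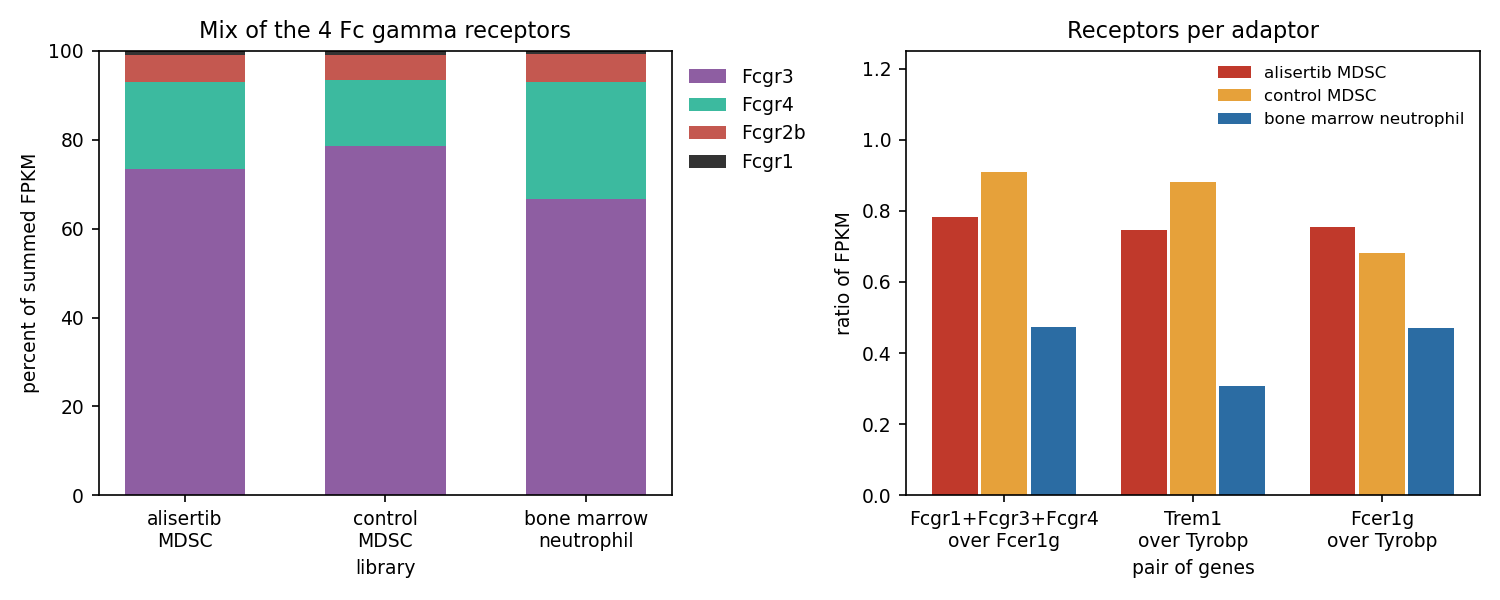
Left, percent of the summed FPKM of the 4 Fc gamma receptor genes in each library. Right, ratios of FPKM between receptor and adaptor genes, 1 bar per library with no error bar, as each group was 1 library. Fcgr3 was the largest part in each library (66.7% to 78.5%), and Trem1 per Tyrobp was 0.747 with alisertib, 0.881 in control MDSCs and 0.307 in bone marrow.

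Trem1 had the most counts of the 10 genes. Trem1 (ENSMUSG00000042265, chromosome 17, 48232768 to 48246924, plus strand) had 30994 counts with alisertib, 43819 in control MDSCs and 19670 in bone marrow, or 1493, 2243 and 853 CPM. It was 2.63-fold higher in control MDSCs than in bone marrow (2.59 to 2.68) and was called. With alisertib it was 1.75-fold higher than in bone marrow (1.72 to 1.78) and was not called. By FPKM it ranked 85, 65 and 128 among all genes. All 13 neutrophil markers had a log2 ratio below 0 in control MDSCs against bone marrow, 9 of them called lower, so Trem1 differed in the opposite direction to them. Their part in the level of Trem1 was not tested.

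The paired immunoglobulin-like receptors held every member called lower against bone marrow: Pirb and Pilra in both tumour libraries and Pilrb1 with alisertib. Pirb (ENSMUSG00000058818, chromosome 7, 3711409 to 3720391, minus strand) had 736 counts with alisertib, 1346 in control MDSCs and 12611 in bone marrow, or 35.5, 68.9 and 547 CPM. It was 15.4-fold lower with alisertib than in bone marrow (14.3 to 16.6) and 7.93-fold lower in control MDSCs (7.50 to 8.40). By FPKM, Pirb ranked 4021 with alisertib and 2752 in control MDSCs, but 357 in bone marrow, where it stood above Pilra and Fcgr4. Summed with its closest copies, Gm14548 and Pira2, it was 8.25-fold lower with alisertib (7.88 to 8.65) and 4.23-fold lower in control MDSCs (4.08 to 4.39), still called in both.

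Pilra (ENSMUSG00000046245, chromosome 5, 137821952 to 137836281, minus strand) had 1273, 1814 and 5704 counts, or 61.3, 92.9 and 247 CPM. It was 4.03-fold lower with alisertib than in bone marrow (3.79 to 4.29) and 2.66-fold lower in control MDSCs (2.53 to 2.81), called in both. Its activating partner Pilrb1 (ENSMUSG00000066684, chromosome 5, 137852147 to 137858106, minus strand) had 443, 636 and 1498 counts, or 21.3, 32.6 and 64.9 CPM. It was 3.04-fold lower with alisertib (2.73 to 3.39) and was called. In control MDSCs it was 1.99-fold lower (1.82 to 2.19) and missed the 2-fold bound. It was called with total counts (log2 ratio -1.23). With FPKM plus 0.1 its log2 ratio was -1.01, past 2-fold but with no interval. Its sum with Pilrb2 and Pilra was called (-1.50), but that sum holds Pilra, which was called by itself.

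The share of Pilrb1 in the counts of both genes was 25.8% with alisertib (23.8 to 28.0), 26.0% in control MDSCs (24.2 to 27.7) and 20.8% in bone marrow (19.9 to 21.8). The intervals of the tumour libraries, which cover counting error only, overlapped, and both lay above that of bone marrow. Pilra and Pilrb1 were both lower in the tumour libraries but not in the same proportion. Their start regions differ at 4 of 246 aligned bases, and a link to these levels was not tested. Because of their shared sequence, the counts of these genes cannot be fully told apart.

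In alisertib MDSCs against bone marrow neutrophils, which uses the same bone marrow library, Fcgr1 and Fcgr3 were called higher, and Pirb, Pilra and Pilrb1 lower. Among all tested genes 41.0% were called, 18.7% higher and 22.3% lower. The members' log2 ratios ran from -3.95 to 1.59, with a median of 0.36 against -0.095 for all genes.

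The comparison of alisertib MDSCs with control MDSCs asked how these receptors differed after treatment, and used the same control library as the comparison with bone marrow. No member was called in either direction, against 2.98% of all tested genes (1.8% higher and 1.18% lower). Of all called genes 60.3% were higher. Across settings this split ran from 32.4% (FPKM plus 1, called on the ratio without an interval) to 84.0% (total counts). It was 34.6% with a 10 CPM filter, 49.1% with a 1.5-fold bound and 52.7% with DESeq2 size factors. Of the members, 9 had a log2 ratio below 0, and the median was -0.45 against 0.00 for all genes. With total counts, which shift every gene alike, the median of all genes was 0.27 and that of the members -0.18. The members' median minus that of all genes was -0.45, or -0.37 with a 10 CPM filter. With total counts, Fcgr1 and Fcer1g had log2 ratios of 0.033 and 0.071.

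**Figure D3:**
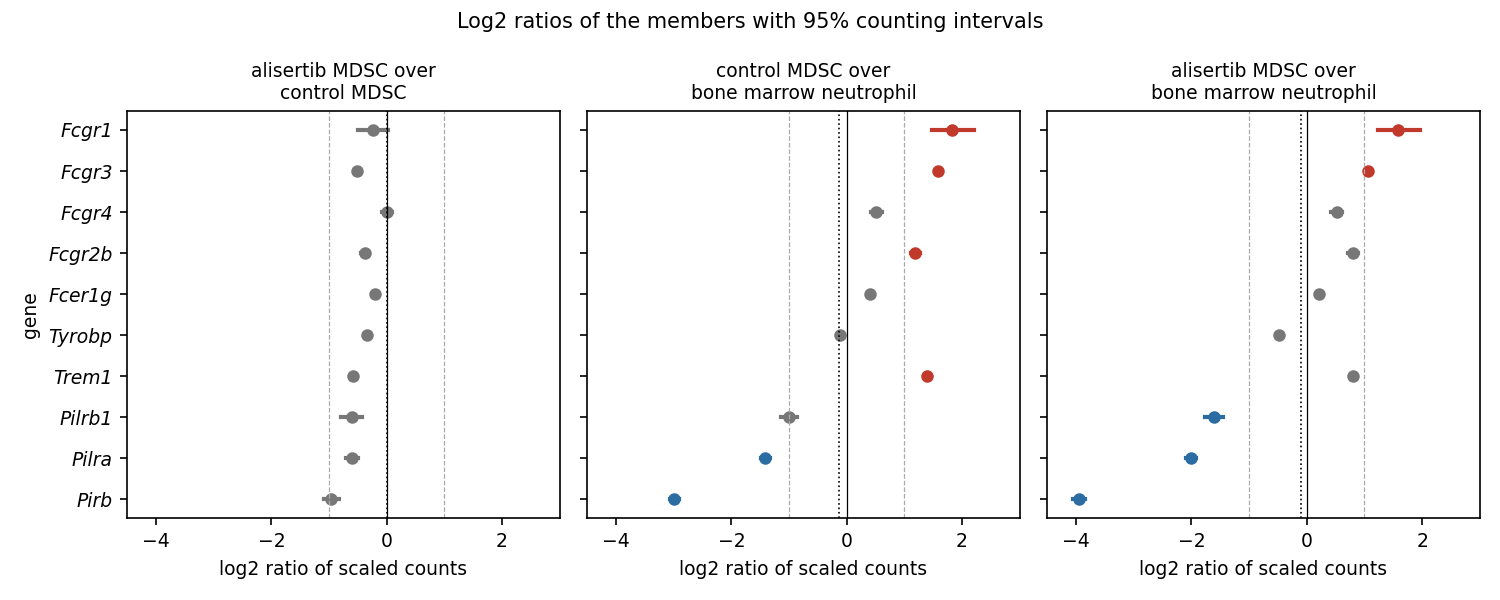
Log2 ratios of scaled counts with exact 95% counting intervals for the 3 comparisons. Red points were called higher, blue points lower and grey points not called. Dashed lines mark 2-fold and the dotted line the median of all tested genes. With alisertib against control the members ran from -0.96 (Pirb) to 0.00 (Fcgr4).

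Pirb differed most with alisertib. Its 35.5 CPM with alisertib against 68.9 CPM in control MDSCs gave a 1.94-fold lower level (1.78 to 2.13), whose interval spans 2-fold, and 5.29% of tested genes had a lower log2 ratio. Pilrb1 had a ratio of 0.655 (0.579 to 0.741), Pilra of 0.660 (0.614 to 0.710) and Trem1 of 0.666 (0.656 to 0.675). The IgG receptors were closer to 1. Fcgr3 had a ratio of 0.702 (0.685 to 0.720), Fcgr2b of 0.767 (0.731 to 0.806) and Fcgr1 of 0.849 (0.708 to 1.02). Fcgr4, at 103.5 CPM with alisertib and 103.3 CPM in control MDSCs, gave a ratio whose interval, 0.943 to 1.07, included 1, and a difference was not detectable with these counts. Tyrobp had a ratio of 0.785 (0.764 to 0.807) and Fcer1g of 0.872 (0.848 to 0.897).

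Cell type markers also differed between the tumour libraries. Of 13 neutrophil markers 8 were called lower with alisertib and none higher, with a median log2 ratio of -1.38. The remaining 5 were not called, among them Ly6g with a ratio of 0.731 (0.678 to 0.787), and 1 marker had a log2 ratio above 0. The calls were higher for 8 of 12 B and plasma cell markers and for 8 of 12 tested T and NK cell markers, and lower for none of either list. None of the B and plasma cell markers was at 0 in any library, while Ncr1 and Klrb1c were at 0 with alisertib and Klrb1c in control MDSCs. None of 13 tested monocyte and macrophage markers was called. The part of these shifts in the receptors' ratios was not tested.

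Downstream of the receptors, the kinase gene Syk was abundant. Syk, which binds phosphorylated ITAMs, had 1896 CPM with alisertib, 2381 CPM in control MDSCs and 981 CPM in bone marrow, and control MDSCs were 2.43-fold higher than bone marrow (2.39 to 2.47). Of 17 genes of kinases and activating relays, 3 were called higher and 5 lower in control MDSCs against bone marrow, shares near the 18.3% and 22.9% of all genes, with a median log2 ratio of -0.68. The phosphoinositide kinase genes Pik3cd (13.6-fold, 12.5 to 14.9) and Pik3cg (4.16-fold, 3.93 to 4.40), the regulatory subunit gene Pik3r5 (4.73-fold, 4.43 to 5.05) and the phospholipase gene Plcg2 (6.32-fold, 5.95 to 6.72) were lower. Of the same 17 genes, 1 was called higher and 8 lower with alisertib against bone marrow, beside 18.7% and 22.3% of all genes. The 1 called higher was Malt1, a relay to NF-kappaB, at 4.55-fold (4.32 to 4.80). Syk was 1.93-fold higher with alisertib than in bone marrow (1.90 to 1.97) and was not called. Between alisertib and control none of the 17 was called, with a median of -0.22.

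Several inhibitory relays had less transcript in tumour MDSCs. Of 10 genes, 5 were called lower and none higher in control MDSCs against bone marrow, beside 22.9% and 18.3% of all genes. The median log2 ratio was -1.28. In alisertib MDSCs against bone marrow 4 were called lower and 1 higher, beside 22.3% and 18.7% of all genes, with a median of -0.82. The gene called higher there was Cblb, at 2.80-fold (2.41 to 3.27). Ptpn6, the phosphatase that ITIMs of PIR-B recruit, had 53.2 CPM with alisertib, 63.0 CPM in control MDSCs and 506 CPM in bone marrow, and was 8.04-fold lower in control MDSCs (7.58 to 8.53). The ubiquitin ligase gene Cbl was 4.73-fold lower (4.55 to 4.91), the kinase gene Csk, which restrains SRC family kinases, 4.86-fold (4.53 to 5.20) and the adaptor gene Dok2 3.01-fold (2.78 to 3.27). Inpp5d, the lipid phosphatase that FcgammaRIIB recruits, was not among them, at 497 CPM with alisertib, 582 CPM in control MDSCs and 337 CPM in bone marrow. Between alisertib and control, Cblb, a ubiquitin ligase also active in T cells, was the 1 gene of the 10 called, 5.51-fold higher (4.46 to 6.86), in the library with higher T cell markers, whose part in it was not tested.

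**Figure D4:**
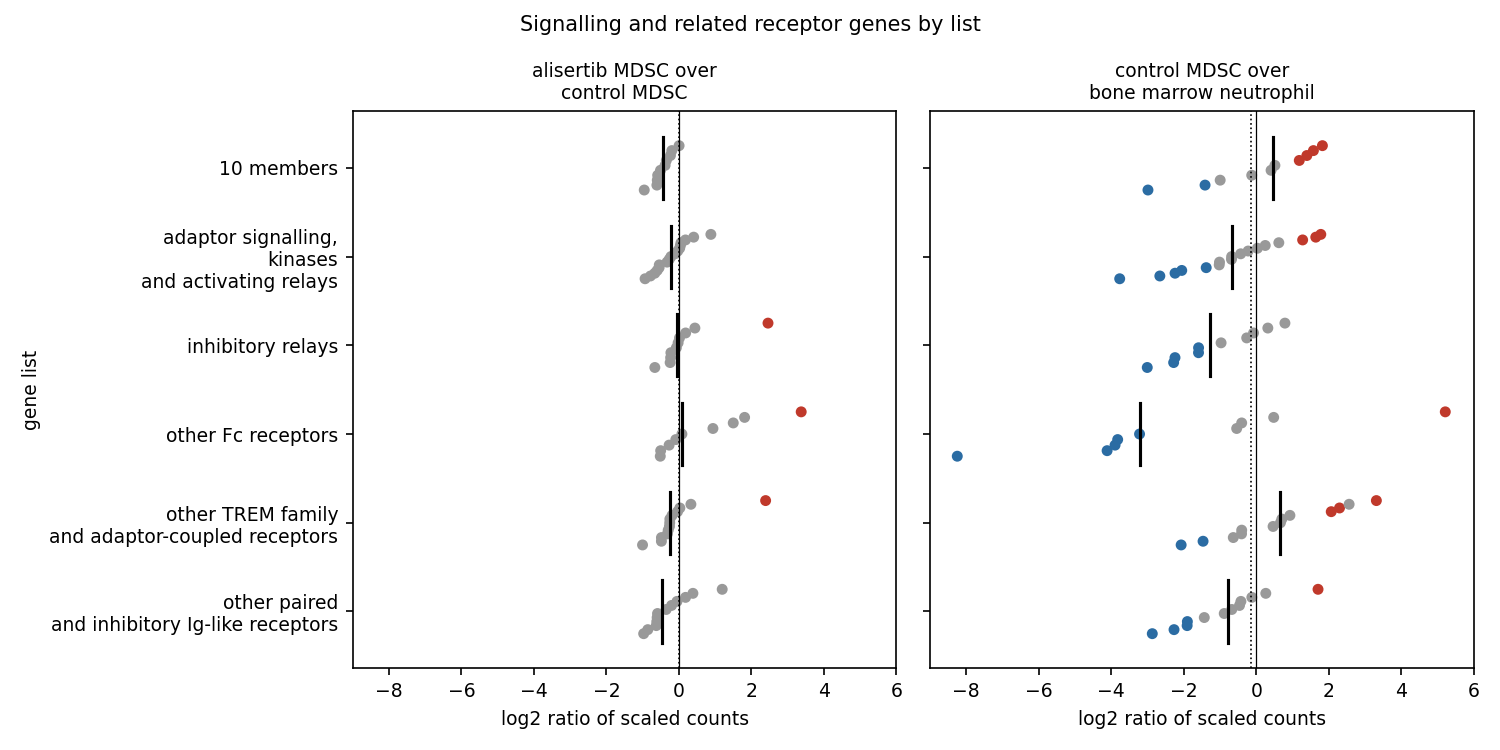
Log2 ratios of scaled counts for the 10 members and for the tested genes of 5 related lists, alisertib over control MDSCs on the left and control MDSCs over bone marrow neutrophils on the right. Red points were called higher, blue lower and grey not called, black bars are list medians and the dotted line is the median of all genes. On the left most points lie near 0 and 3 of the listed genes are red, and on the right the inhibitory relays have a median of -1.28.

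Further TREM family, adaptor-coupled and paired receptors were called in both directions, about as often in total as the 41.3% of all genes. Of 13 further TREM family and adaptor-coupled receptors, 3 were called higher and 2 lower in control MDSCs against bone marrow, with a median log2 ratio of 0.67. Trem2, a lipid-sensing receptor of macrophages, was 10.2-fold higher (5.98 to 18.8) at 130 against 15 counts. Cd300c2 was 4.92-fold higher (4.56 to 5.31) and Cd300ld 4.20-fold higher (3.71 to 4.76), whereas Treml2 was 4.21-fold lower (3.96 to 4.47). Of 12 further paired or inhibitory receptors 1 was called higher and 4 lower, with a median of -0.78. Among relatives of Pirb and Pilrb1, Lilra6 was 3.75-fold (3.48 to 4.04), Pira2 3.74-fold (3.27 to 4.29) and Pilrb2 4.82-fold lower (4.35 to 5.36). Each has sequence that close copies can share. Lilra5, with 10 against 33 counts, was not called. Pira1, Pira6, Pira7 and Pira11 could not be matched to the count table. Ceacam1, an ITIM-bearing adhesion receptor, was 7.30-fold lower (6.90 to 7.73). Between alisertib and control none of these 12 was called, with a median of -0.47. The inhibitory receptor gene Cd300lf was the 1 called higher against bone marrow, with 1682 CPM with alisertib, 2554 CPM in control MDSCs and 784 CPM in bone marrow.

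Other Fc receptors were mostly those of lymphocytes and of cells that bind IgE, and were at low levels. Of 9 tested, 1 was called higher and 5 lower in control MDSCs against bone marrow, beside 18.3% and 22.9% of all genes. The median log2 ratio was -3.22. The lower genes included Fcmr, the IgM receptor, with 5 against 112 counts, and Fcer2a, the low-affinity IgE receptor of B cells, with 3 against 61 counts. Fcrlb, an intracellular Fc receptor-like protein, was 41.6-fold higher (15.9 to 155) at 141 against 4 counts. Between alisertib and control, Fcer2a had 38 counts with alisertib and 3 in control MDSCs, a ratio of 11.9 (3.78 to 60.4), and Cd247, the zeta chain of the T cell receptor, 97 and 17 counts, a ratio of 5.37 (3.19 to 9.59). Both are lymphocyte genes and were called higher in the library with higher B and T cell markers, whose part in them was not tested.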

How the data were processed

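RNA sequencing gave 1 library for each of 3 pools of sorted cells. The authors deposited raw counts per gene and FPKM values. Per the submitters' processing notes, the tools were CASAVA 1.8 and STAR 2.5.1b and the builds mm9 and mm10, listed with no role. How reads were counted, the annotation, strand and read length: not given in the sources used here. Symbols and positions came from GENCODE M21 (GRCm38), which is not known to be the authors' annotation.

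Counts were scaled with TMM factors from edgeR 4.0.16 in R 4.3.3. Genes at 1 CPM or more in at least 1 library were kept. Log2 ratios were taken after adding 0.5 to each count. Ratio intervals are exact (Clopper-Pearson) given the summed count, at a level of 95%, computed with scipy 1.17.1. They cover counting error only, as each group had 1 library. Reads counted without molecular identifiers may be copies of 1 molecule, in which case the intervals are too narrow. With 1 library a group no test across samples was possible. Scaling by DESeq2 1.42.0 size factors or total counts, other filters, bounds of 1.5-fold and 4-fold, and FPKM with a pseudocount were alternatives. FPKM values had no counting interval, so with them a gene was called when its ratio itself was at least 2-fold. The comparison was also run on simulated counts with counting error only. Such counts share the assumption of the intervals and cannot show how the comparison does with differences between animals.

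The members, gene lists and rules were chosen with earlier results of these data known. Named genes were the 10 members and, from each list and comparison, up to 4 genes, called genes first by bound and then the most abundant. Syk, Inpp5d, Ms4a2 and single marker genes were named after their values were seen, or under another comparison. Shared 50-base words were counted across GENCODE M21 transcripts. Some marker genes are not reported here.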

Additional observations from a re-analysis of the deposited data

How the results depend on the processing

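With 1 library a group no replicate could be left out. No paired analysis was possible because each group had 1 library. Counting error limits Fcgr1 most, with 85 counts in bone marrow. Filters could not change a member's ratio, nor could other bounds change its direction, so only scaling, FPKM and close copies bear on the ratios. Directions were reversed 5 times, all in alisertib over control. Total counts ended the call of Fcgr2b and called Pilrb1 in control over bone marrow. FPKM plus 0.1, which had no interval, put the ratio of Pilrb1 there past 2-fold. In alisertib over control, the log2 ratio of Fcgr4 (0.00) was -0.050 with DESeq2 size factors and -0.0012 with FPKM plus 0.1 or plus 1, and with total counts that of Fcgr1 was 0.033 and that of Fcer1g 0.071. The members' median was -0.18 with total counts in that comparison, and in control over bone marrow 0.54 with DESeq2 size factors and 0.22 with total counts. A 1.5-fold bound called 1 member lower with alisertib against control (Pirb) and 4 higher in alisertib over bone marrow. A 4-fold bound called 0 higher and 1 lower (Pirb) in both comparisons with bone marrow. Summing with close copies, an alternative chosen after seeing the data, ended the call of Fcgr3 in alisertib over bone marrow. The sum of Pilrb1, Pilrb2 and Pilra was called in control over bone marrow. Pilra, called by itself, gave 1814 of its 2876 control counts and 5704 of its 9628 bone marrow counts, so the sum does not show a call of Pilrb1.

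Shares per length (FPKM) in place of counts were, for alisertib, control and bone marrow, 23.1%, 28.1% and 19.7% for Fcgr2b in Fcgr2b and Fcgr4, and 19.7%, 14.8% and 26.2% for Fcgr4 in the 4 receptors. They were 43.0%, 40.5% and 32.0% for Fcer1g in both adaptors, and 35.5%, 35.6% and 29.3% for Pilrb1 in Pilra and Pilrb1. The order of the libraries was as in counts, since a gene's length is the same in each.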
